A study of Homo sapiens with 6 samples.

Results

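The genes described here are 10 mucins, MUC1, MUC2, MUC4, MUC5AC, MUC5B, MUC6, MUC13, MUC15, MUC16 and MUC20, taken by symbol from a table of read counts for 62703 genes. RNA was sequenced from A549, an established line from a human lung adenocarcinoma, in S-AlgLung hydrogels (3 libraries) and in AlgLung hydrogels (3 libraries). The labels name no other agent or allele and do not spell out the S, and the study's title speaks of matrix sulfation. Nothing in them tells if the replicates of a hydrogel came from different cultures, and the p-values below therefore reflect library-to-library spread that could be technical. All cells are of 1 cancer line, which limits what they stand for as airway epithelium. The mucins were chosen with the values of S-AlgLung against AlgLung already known, so their differences between the hydrogels are given as a description, with no p-value.

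Mucins are large glycoproteins whose serine- and threonine-rich stretches carry dense O-linked sugars. The gel-forming mucins MUC2, MUC5AC, MUC5B and MUC6 are secreted and joined by disulfide bonds into the polymers of mucus, of which MUC5AC and MUC5B are the main ones in the airway. Membrane mucins such as MUC1, MUC4, MUC13, MUC15, MUC16 and MUC20 span the plasma membrane, form part of the glycocalyx and can be shed from the cell surface.

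Total counts ran from 24132875 to 26495444 per library in S-AlgLung and from 22978408 to 23682120 in AlgLung. The epithelial keratin gene KRT8 was at 2801 to 7551 counts per 1000000 reads (CPM, scaled by trimmed mean of M values) in S-AlgLung and 6169 to 8279 CPM in AlgLung. By mean it was the highest of 10 epithelial genes known to be expressed in A549, none of which was called. CDH1 was at 70.3 to 99.0 CPM in S-AlgLung and 60.7 to 72.9 CPM in AlgLung. EPCAM, the lowest, was at 2.99 to 5.40 CPM in S-AlgLung and 1.53 to 2.34 CPM in AlgLung. Marker lists of other cells were mixed. Of 6 leukocyte markers, PTPRC and CD3E were at no more than 0.211 CPM, whereas CD14 and CD68 were called higher in S-AlgLung, and the list summed to 187.5 to 238.4 CPM in S-AlgLung and 88.7 to 132.0 CPM in AlgLung. Most of that sum was CD68, at 143.2 to 171.4 CPM in S-AlgLung and 57.8 to 93.8 CPM in AlgLung. The gene ENSG00000264772 covers 81.6% of the CD68 model on the same strand and had 654% of its counts. Reads in that stretch may belong to either gene. Of 8 alveolar type 2 markers, SFTPC was at no more than 0.0844 CPM and none was called, and the list summed to 175.4 to 323.3 CPM in S-AlgLung and 178.4 to 245.7 CPM in AlgLung, nearly all of it ABCA3 (172.6 to 321.0 CPM in S-AlgLung and 176.4 to 244.1 CPM in AlgLung). Of 6 basal-cell markers, KRT5 was at no more than 0.169 CPM, KRT15 was called higher and TP63 lower, and the list summed to 37.8 to 43.99 CPM in S-AlgLung and 32.6 to 38.6 CPM in AlgLung. Of 6 ciliated-cell markers, FOXJ1 was at no more than 0.453 CPM and TPPP3 was called higher, and the list summed to 189.9 to 512.5 CPM in S-AlgLung and 160.4 to 198.7 CPM in AlgLung. The part of such cells in the results below was not tested. S-AlgLung replicate 3 stood apart on the second principal component (-49.2, against 20.2 and 33.4 in the other S-AlgLung libraries), and the nuclear RNAs MALAT1 and NEAT1 made up 0.0264% of its counts and at most 0.00736% of the others.

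The tandem repeats that carry the sugars are visible in the genes themselves. Such repeats can limit how reads are assigned, so 1 unit each of MUC1 and MUC5B is shown. The sequences are from GENCODE release 29 (GRCh38), read 5′ to 3′ on the coding strand, with capitals for codons of serine or threonine in the reading frame.
MUC1: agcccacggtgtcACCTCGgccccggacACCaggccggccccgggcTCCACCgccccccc
MUC5B: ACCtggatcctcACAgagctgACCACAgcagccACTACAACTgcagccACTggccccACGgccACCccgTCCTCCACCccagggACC
The MUC1 unit lies in exon 2 (chr1:155191821-155191880, minus strand), is 60 bases long and occurs in 19 exact copies in the coding part of the longest transcript. The MUC5B unit (chr11:1246274-1246360, plus strand, exon 31) is 87 bases long with 2 exact copies, and 14 of its 29 codons are for serine or threonine. Of all 30-base words in the longest protein-coding transcript, 48.6% occur more than once in MUC1, 42.6% in MUC4, 36.8% in MUC5B, 31.6% in MUC5AC, 21.0% in MUC20 and 3.86% in MUC16. Only 0.722% of 19669 protein-coding genes exceed 10% in this measure. MUC2 could not be measured this way, since its longest protein-coding transcript in that release holds 393 bases, against 12667 bases in the deposited gene model. For MUC1 the measured transcript holds 4170 bases, against 2401 in the deposited gene model, so its repeat figures may not describe what was counted. The sources used here do not give how reads aligned to several places were counted, so levels of the repeat-rich mucins are less certain than those of MUC13 (1.33%).

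MUC5B and MUC5AC were among the most abundant transcripts of these cells, and the 10 mucins together took 1.14% to 3.07% of all counts in S-AlgLung and 0.714% to 1.43% in AlgLung. The summed share was 3.07%, 1.77% and 1.14% in S-AlgLung replicates 1, 2 and 3, against 1.43%, 0.975% and 0.714% in AlgLung replicates 1, 2 and 3. The groups overlapped, since AlgLung replicate 1 lay above S-AlgLung replicate 3. The mean share was 1.996 ± 0.985% in S-AlgLung and 1.04 ± 0.364% in AlgLung (SD, n = 3 each), a difference of 0.956 percentage points, and 0.417 points without S-AlgLung replicate 1. MUC5B and MUC5AC supplied 97.9% to 98.6% of the mucin counts in S-AlgLung and 97.9% to 98.8% in AlgLung. Among all genes, MUC5B held rank 1 to 5 by counts in S-AlgLung and rank 6 to 15 in AlgLung, and MUC5AC rank 4 to 11 in S-AlgLung and rank 5 to 20 in AlgLung.

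**Figure D1:**
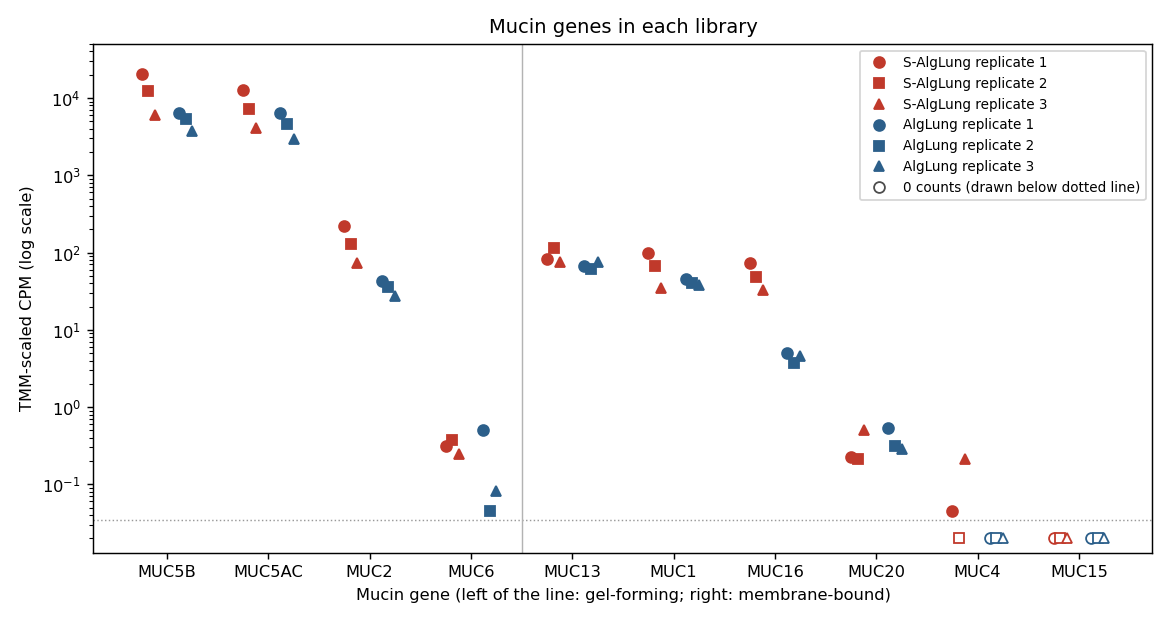
TMM-scaled CPM on a log axis for the 10 mucin genes, 1 point per library, with S-AlgLung in red left of AlgLung in blue; open symbols below the dotted line are libraries with 0 counts. MUC2 and MUC16 are separated between the hydrogels, MUC5B and MUC5AC overlap, and MUC6, MUC20, MUC4 and MUC15 lie below 1 CPM in every library.

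Of the 10 mucins, 6 passed the low-count filter and entered the fit of 18544 genes. All 6 had a log2 fold change above 0 (S-AlgLung minus AlgLung), with a median of 1.05 beside 0.03 over all tested genes; 9905 of the 18544 genes were above 0. With edgeR's quasi-likelihood test at an adjusted p under 0.05, MUC16, MUC2 and MUC5B were called higher and none lower, beside 3.09% of all tested genes called higher (573) and 2.04% called lower (378). In MUC2 and MUC16 every S-AlgLung library was above every AlgLung library, beside 10.4% of all tested genes; in none was S-AlgLung below without overlap, beside 8.05% of all tested genes. The other 4 overlapped. Since the mucins were chosen from this contrast, nothing is read from these counts. Scaled by library totals only, 333 genes were called higher and 343 lower, so the split between higher and lower genes depended on the scaling, and 3 mucins were again called higher.

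Among the gel-forming mucins, MUC2, the main mucin of intestinal mucus (ENSG00000198788, chr11:1074875-1110511, GRCh38), had 221.9, 127.1 and 72.3 CPM in S-AlgLung replicates 1, 2 and 3, against 42.7, 36.1 and 27.1 CPM in AlgLung replicates 1, 2 and 3. The lowest S-AlgLung library was still above the highest AlgLung library. The mean was 140.4 ± 75.7 CPM in S-AlgLung and 35.3 ± 7.86 CPM in AlgLung (SD, n = 3 each), a log2 fold change of 1.99 (SE 0.32) or 3.98-fold. Its log2 fold change was 2.27 when S-AlgLung replicate 3 was left out and 1.498 when S-AlgLung replicate 1 was.

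MUC5B, the gel-forming mucin of airway submucosal glands (ENSG00000117983, chr11:1223066-1262172), had 20402, 12207 and 6113 CPM in S-AlgLung replicates 1, 2 and 3, against 6392, 5375 and 3719 CPM in AlgLung replicates 1, 2 and 3. The S-AlgLung libraries were spread 3.34-fold between highest and lowest and the AlgLung libraries 1.72-fold, and S-AlgLung replicate 3 lay below AlgLung replicate 1. The means were 12907 ± 7170.0 CPM in S-AlgLung and 5162 ± 1349 CPM in AlgLung, a log2 fold change of 1.32 (SE 0.37). MUC5B was no longer called without S-AlgLung replicate 1, where the log2 fold change was 0.83, or without AlgLung replicate 1, 2 or 3, at 1.46, 1.35 and 1.09. It was also not called with the size factors of DESeq2 (1.31) or with limma-voom (1.20), whereas leaving out S-AlgLung replicate 3 gave a call at 1.62. The gene MUC5B-AS1 lies on the other strand and shares 434 bases with MUC5B exons, and its counts were 4.45% to 5.70% of those of MUC5B in S-AlgLung and 5.14% to 5.37% in AlgLung. The sources used here do not tell if counting used the strand, so the reads of this pair cannot be told apart.

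MUC5AC, the gel-forming mucin of airway surface goblet cells (ENSG00000215182, chr11:1157953-1201138), had 12760.4, 7263 and 4123 CPM in S-AlgLung replicates 1, 2 and 3, against 6453, 4555 and 2983 CPM in AlgLung replicates 1, 2 and 3. The groups overlapped, and in both hydrogels the library labelled replicate 1 was the highest, as for MUC5B and MUC2. The log2 fold change was 0.79 (SE 0.37), and the gene was not called. It was called without S-AlgLung replicate 3, at 1.06, and its log2 fold change was 0.29 without S-AlgLung replicate 1. MUC6, a gastric gland mucin in the same cluster on chromosome 11 (chr11:1012823-1036718), had 7, 9 and 7 counts in S-AlgLung and 13, 1 and 2 counts in AlgLung, too few to test. The 4 gel-forming genes lie within 249350 bases, in the order MUC6, MUC2, MUC5AC and MUC5B, and none of the 4 gene models overlaps another.

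Although MUC5B, MUC5AC and MUC2 varied up to 3.34-fold within a hydrogel, their proportions to each other varied little. MUC5B stood to MUC5AC at ratios of 1.49996, 1.58 and 1.39 per kilobase of gene model in S-AlgLung replicates 1, 2 and 3, against 0.929, 1.11 and 1.17 in AlgLung replicates 1, 2 and 3. MUC2 counts were 1.09%, 1.04% and 1.18% of MUC5B counts in S-AlgLung, against 0.669%, 0.671% and 0.728% in AlgLung. In both measures the S-AlgLung libraries lay above the AlgLung libraries with no overlap, and scaling between libraries does not enter a ratio within a library. The ratio of MUC5B to MUC5AC averaged 1.49 ± 0.0933 in S-AlgLung and 1.07 ± 0.125 in AlgLung (SD, n = 3 each), and MUC2 averaged 1.10 ± 0.0722% of MUC5B counts in S-AlgLung and 0.689 ± 0.0336% in AlgLung. These ratios come from the contrast that chose the genes and were not tested.

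**Figure D2:**
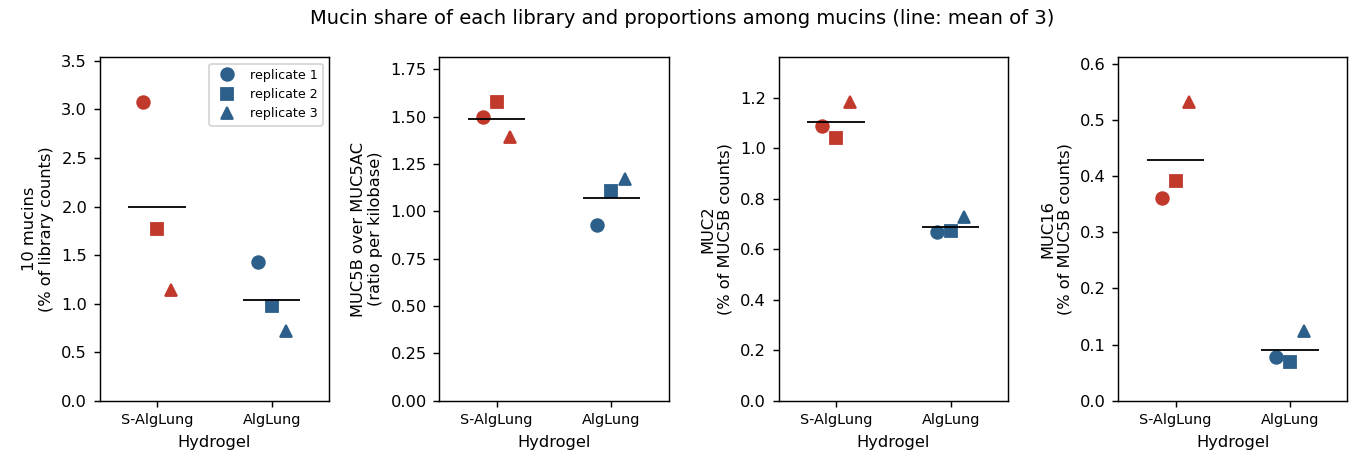
Share of library counts taken by the 10 mucins, ratio of MUC5B to MUC5AC per kilobase, and MUC2 and MUC16 counts as a percentage of MUC5B counts, 1 point per library with the mean of 3 as a line. The summed share overlaps between the hydrogels, whereas the 3 proportions are higher in every S-AlgLung library than in any AlgLung library.

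Among the membrane mucins, MUC16, which carries the tumour antigen CA125 (ENSG00000181143, chr19:8848844-8981342), differed by the most. It had 1627, 1130 and 915 counts, or 73.8, 47.7 and 32.5 CPM, in S-AlgLung replicates 1, 2 and 3, against 131, 82 and 111 counts, or 5.02, 3.69 and 4.59 CPM, in AlgLung replicates 1, 2 and 3. The lowest S-AlgLung library was several times above the highest AlgLung library. The log2 fold change was 3.53 (SE 0.28), or 11.5-fold, and it ran from 3.17 to 3.73 with 1 library left out. As a proportion, MUC16 counts were 0.362%, 0.391% and 0.532% of MUC5B counts in S-AlgLung, against 0.0786%, 0.0686% and 0.124% in AlgLung.

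MUC1, a widely expressed epithelial mucin with a signalling tail (ENSG00000185499, chr1:155185824-155192916), had 98.9, 66.5 and 34.3 CPM in S-AlgLung replicates 1, 2 and 3, against 45.2, 40.6 and 37.5 CPM in AlgLung replicates 1, 2 and 3. S-AlgLung replicate 3 was below all AlgLung libraries and the other S-AlgLung libraries were above them. The log2 fold change was 0.70 (SE 0.28), not called; it was called at 0.97 when S-AlgLung replicate 3 was left out, and was 0.29 when S-AlgLung replicate 1 was. The gene ENSG00000273088 shares 48 bases of exon with MUC1 on the same strand and had 188% of its counts, so reads in that short stretch may belong to either. MUC13, a mucin of gut and airway surfaces (ENSG00000173702, chr3:124905442-124953819), had 83.2, 114.2 and 74.7 CPM in S-AlgLung and 67.0, 61.1 and 75.3 CPM in AlgLung. Its groups overlapped, with a log2 fold change of 0.42 (SE 0.23), not called.

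The other 3 membrane mucins were at the edge of detection. MUC4, a partner of ERBB2 (ENSG00000145113), had 1, 0 and 6 counts in S-AlgLung and 0 counts in each AlgLung library. MUC20 (ENSG00000176945) had 5, 5 and 14 counts in S-AlgLung and 14, 7 and 7 in AlgLung, and MUC20-OT1, which overlaps 27.1% of its length on the same strand, had 922 counts beside its 52. MUC15 (ENSG00000169550) had 0 counts in all 6 libraries, which allows up to 3 counts, or 0.107 to 0.136 CPM, per library (counting error only).

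**Figure D3:**
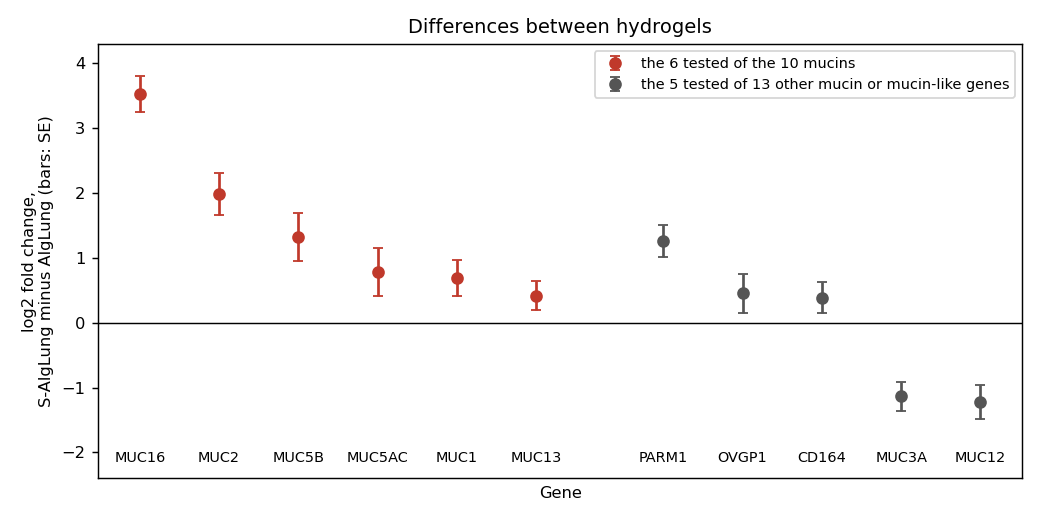
Log2 fold change (S-AlgLung minus AlgLung) with its standard error from the fit over all genes, for the 6 tested of the 10 mucins in red and the 5 tested of 13 other mucin or mucin-like genes in grey. The 6 mucins run from 3.53 in MUC16 to 0.42 in MUC13, whereas MUC3A and MUC12 lie below 0 at -1.13 and -1.22.

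Levels were ordered per kilobase of gene model, for MUC1 the deposited 2401 bases, fewer than the 4170 of its longest protein-coding transcript. In S-AlgLung the order was MUC5B (694 ± 385.5 CPM per kilobase), MUC5AC (461.3 ± 250.6), MUC1 (27.7 ± 13.4), MUC13 (25.9 ± 5.95), MUC2 (11.1 ± 5.97) and MUC16 (1.17 ± 0.476; SD, n = 3). In AlgLung it was MUC5B (277.6 ± 72.5), MUC5AC (267.3 ± 99.6), MUC13 (19.4 ± 2.04), MUC1 (17.1 ± 1.61), MUC2 (2.79 ± 0.621) and MUC16 (0.101 ± 0.0155). MUC5B and MUC5AC overlapped over libraries in both hydrogels, as did MUC1 and MUC13, and no other neighbours in either order overlapped. Compared within each library, MUC5B was above MUC5AC per kilobase in every library except AlgLung replicate 1 (ratio 0.929). MUC16 thus held the lowest level of the 6 in S-AlgLung as in AlgLung, although its difference between the hydrogels was the largest of the 6.

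**Figure D4:**
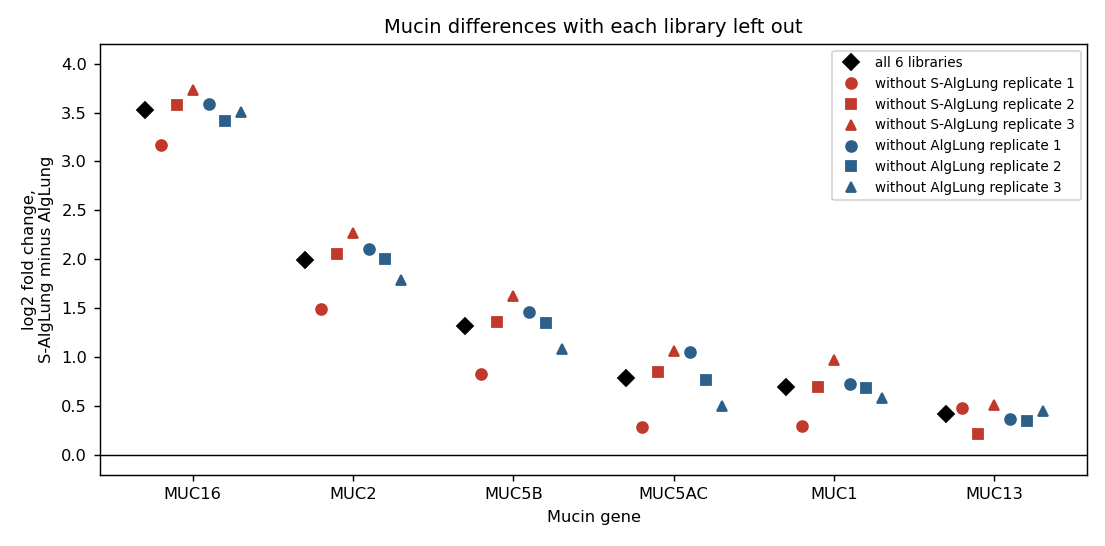
Log2 fold change (S-AlgLung minus AlgLung) of the 6 tested mucins with all 6 libraries (black diamonds), with each S-AlgLung library left out (red) and with each AlgLung library left out (blue). All values lie above 0, and in every gene except MUC13 leaving out S-AlgLung replicate 1 gives the lowest value and leaving out S-AlgLung replicate 3 the highest.

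Other genes of the same family did not all follow this direction. A list of 13 other mucin and mucin-like genes was written with earlier results of these data known. Of these, 5 had enough counts to test, 1 rose and 2 fell, beside 3.09% of all tested genes called higher and 2.04% lower. MUC3A, a membrane mucin known from the intestine (chromosome 7), had 21.2, 17.1 and 11.5 CPM in S-AlgLung replicates 1, 2 and 3, against 35.6, 34.4 and 39.1 CPM in AlgLung replicates 1, 2 and 3. S-AlgLung lay below with no overlap, as in 8.05% of all tested genes. MUC3A fell by 1.13 on the log2 scale (SE 0.23, edgeR adjusted p = 0.00118), and over the alternatives its adjusted p ran from 4.639e-07 to 0.0183. Its neighbour MUC12, also a membrane mucin, had 5.26, 4.01 and 2.84 CPM in S-AlgLung and 9.89, 7.64 and 10.51 CPM in AlgLung, and fell by 1.22 (SE 0.26, edgeR adjusted p = 0.00269, 1.079e-05 to 0.0150 over the alternatives). The MUC3A and MUC12 models are 1217 bases apart. Each overlaps a gene on the other strand, ENSG00000274993 with 66.3% of the counts of MUC3A and MUC12-AS1 with 57.6% of those of MUC12, so part of their reads cannot be assigned to 1 strand. Of the 30-base words in the longest protein-coding transcript, 67.2% occur more than once in MUC12 and 8.51% in MUC3A, so the level of MUC12 is also uncertain through its repeats.

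PARM1, a mucin-like membrane protein, rose from the same list, with 248.99, 225.8 and 359.5 CPM in S-AlgLung against 119.4, 110.2 and 118.5 CPM in AlgLung (log2 fold change 1.26, SE 0.25, edgeR adjusted p = 0.00122). CD164, a sialomucin, was at 0.39 and OVGP1, an oviductal glycoprotein, at 0.46, neither called (edgeR adjusted p = 0.508 and 0.542). The remaining 8 genes, among them MUC7, MUC17, MUC19, MUC21 and MUC22, were below the filter.

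The 250 bases upstream of MUC2, whose libraries lay higher in S-AlgLung, and of MUC3A and MUC12, which fell, are shown so that the 3 can be compared; for these genes the RefSeq start coincides with the start of the deposited gene model to within 1 base. The sequences are from RefSeq (GRCh38.p14, plus strand), with capitals for matches on either strand to the SP1 motif GGGCGG, the TATA box TATAAA, the AP-1 motif TGAGTCA, the forkhead motif TGTTTAC or the E-box CACGTG.
MUC2: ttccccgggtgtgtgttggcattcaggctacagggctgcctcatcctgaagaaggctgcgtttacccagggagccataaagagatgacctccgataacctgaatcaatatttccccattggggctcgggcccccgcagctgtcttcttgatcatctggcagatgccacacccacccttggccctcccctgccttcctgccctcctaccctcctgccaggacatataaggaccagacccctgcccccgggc
MUC3A: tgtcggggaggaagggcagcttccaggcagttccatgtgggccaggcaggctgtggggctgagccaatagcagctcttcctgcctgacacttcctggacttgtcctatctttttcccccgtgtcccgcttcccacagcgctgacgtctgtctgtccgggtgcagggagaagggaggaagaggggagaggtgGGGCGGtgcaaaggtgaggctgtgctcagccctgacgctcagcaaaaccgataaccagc
MUC12: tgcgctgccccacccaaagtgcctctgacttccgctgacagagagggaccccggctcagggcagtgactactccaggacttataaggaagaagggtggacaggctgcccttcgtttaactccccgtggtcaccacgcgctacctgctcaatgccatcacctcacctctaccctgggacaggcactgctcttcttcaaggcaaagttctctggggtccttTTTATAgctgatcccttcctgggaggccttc
The window of MUC2 (chr11:1074624-1074873) held no exact match to the 5 motifs, and that of MUC3A (chr7:100949284-100949533) held 1 match to GGGCGG. That of MUC12 (chr7:100969315-100969564) held 1 match to TATAAA, on the strand opposite to the gene. Only exact letters were searched, so the near match tataag in the windows of MUC2 and MUC12 was not marked. The search does not tell if a gene has a working TATA box. Of 35116 windows of the same length, 42.6% held the SP1 motif, 10.7% the TATA box, 4.203% the AP-1 motif, 2.98% the forkhead motif and 6.34% the E-box. The 3 windows thus shared no exact match to these motifs. Promoter entries were found for 5 of the 10 mucins, MUC1, MUC2, MUC4, MUC13 and MUC16.

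Genes that fold, package, release and modify mucins were followed in lists written from their known roles. Earlier results of these data were known when the lists were written, so the counts and p-values below are no independent test. Together with the other mucins these lists held 93 genes, of which 73 were tested, 8 rose and 3 fell at an adjusted p under 0.05, beside 3.09% of all tested genes called higher and 2.04% called lower (median log2 fold change 0.16, beside 0.03 over all tested genes). Of 12 folding and gel proteins, 9 were tested and 2 rose. TFF3, a trefoil peptide secreted with mucus, had 106.0, 85.0 and 52.1 CPM in S-AlgLung against 7.82, 9.94 and 8.40 CPM in AlgLung (log2 fold change 3.22, SE 0.26, edgeR adjusted p = 3.936e-10). AGR3, a protein disulfide isomerase relative, had 2.49, 3.42 and 7.68 CPM in S-AlgLung against 1.30, 1.44 and 1.74 CPM in AlgLung (log2 fold change 1.61, SE 0.36, edgeR adjusted p = 0.00517). Its call was lost without AlgLung replicate 1 (edgeR adjusted p = 0.0682) or replicate 2 (0.0779). TFF2 was at 0.93 (edgeR adjusted p = 0.0636) and ZG16B, a secreted lectin, at 0.65 (0.124). TFF2 was called in 3 of 15 alternative fits, among them the one without S-AlgLung replicate 3 (edgeR adjusted p = 0.00165), and ZG16B in 1. AGR2, the isomerase that gel-forming mucins need for folding, averaged 1785 ± 205.6 CPM in S-AlgLung and 1815 ± 132.5 CPM in AlgLung, and FCGBP, a component of mucus gels, 2347 ± 722 and 2331 ± 518 CPM in S-AlgLung and AlgLung; neither was called, and both were chosen after their values were seen.

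Of 12 genes of granule exocytosis, 11 were tested and 0 were called in either direction by the main edgeR fit. Over all tested genes that fit called only 3.09% higher and 2.04% lower. Of the 11, 2 had an unadjusted p under 0.05, UNC13B, a priming factor, at a log2 fold change of 0.77 (edgeR adjusted p = 0.0654) and the vesicle SNARE gene VAMP8 at 0.62 (0.129). DESeq2 called 1 of the 11, UNC13B (adjusted p = 0.0111), and limma-voom 0. VAMP8 was called when S-AlgLung replicate 3 was left out (edgeR adjusted p = 0.0161). With the replicate number as a block, both UNC13B and VAMP8 were called (edgeR adjusted p = 0.0283 and 0.0399). Over the 15 alternative fits each of these 2 genes was called in 2.

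Of 26 genes of mucin-type O-glycan synthesis, 21 were tested, 3 rose and 0 fell (median 0.06). This stands beside 3.09% of all tested genes called higher and 2.04% called lower. B3GNT3, which extends core O-glycans, had 188.4, 170.5 and 120.8 CPM in S-AlgLung against 54.5, 94.4 and 77.2 CPM in AlgLung (log2 fold change 1.08, SE 0.25, edgeR adjusted p = 0.00610). The sialyltransferase genes ST3GAL1 and ST6GALNAC2 were higher by 0.78 and 1.24 (edgeR adjusted p = 0.0267 and 0.0273), and ENSG00000284526, which covers 39.8% of the ST6GALNAC2 model on the same strand, had 3962 counts beside its 264. The call of B3GNT3 was lost without AlgLung replicate 1 or 3 (edgeR adjusted p = 0.149 and 0.0595). That of ST3GAL1 was lost without S-AlgLung replicate 3 or AlgLung replicate 1, 2 or 3 (edgeR adjusted p = 0.0533, 0.217, 0.0990 and 0.207), and that of ST6GALNAC2 without S-AlgLung replicate 2 or AlgLung replicate 1 or 2 (0.0914, 0.147 and 0.164). Both were also lost with library totals only (edgeR adjusted p = 0.127 and 0.1199). Of the transferases that add the first sugar, GALNT1 was at -0.71 (edgeR adjusted p = 0.0590) and GALNT5 at 0.53 (0.249), not called. GALNT1 was called lower in 5 of 15 alternative fits, among them DESeq2 (adjusted p = 0.0392), and GALNT5 in 0.

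Of 18 transcription factors of goblet cells and mucin genes, 15 were tested and 1 fell, beside 2.04% of all tested genes called lower. FOXM1, which also drives mitotic genes, had 9.97, 9.42 and 7.14 CPM in S-AlgLung against 25.9, 32.7 and 29.02 CPM in AlgLung, and fell by 1.73 (SE 0.22, edgeR adjusted p = 4.268e-06); its exons overlap ITFG2 on the other strand, which had 90.8% of its counts. FOXA3, a goblet cell factor, was at 0.85 (edgeR adjusted p = 0.0577) and KLF4 at 0.92 (0.128). FOXA3 was called in 5 of 15 alternative fits, at 1.12 when S-AlgLung replicate 3 was left out, and KLF4 in 3, at 1.18 when S-AlgLung replicate 2 was left out.

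Of 12 partners and sheddases of membrane mucins, all were tested and 2 rose, beside 3.09% of all tested genes called higher. ERBB3, a receptor of the family that MUC1 and MUC4 bind, had 60.3, 61.9 and 70.0 CPM in S-AlgLung against 33.4, 28.9 and 26.2 CPM in AlgLung (log2 fold change 1.12, SE 0.22, edgeR adjusted p = 0.000812). A gene on the same strand had 175% of the counts of ERBB3 but shares only 31 of its 11711 exon bases. MMP14, a membrane protease that can shed MUC1, was higher by 1.03 (SE 0.29, edgeR adjusted p = 0.0271). The call of MMP14 was lost without S-AlgLung replicate 1 or AlgLung replicate 1, 2 or 3 (edgeR adjusted p = 0.0594, 0.220, 0.0927 and 0.0810) and with library totals only (0.138). MSLN, the mesothelin that binds MUC16, was at -0.34 (edgeR adjusted p = 0.592) and EGFR at -0.36 (0.538), not called.

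**Figure D5:**
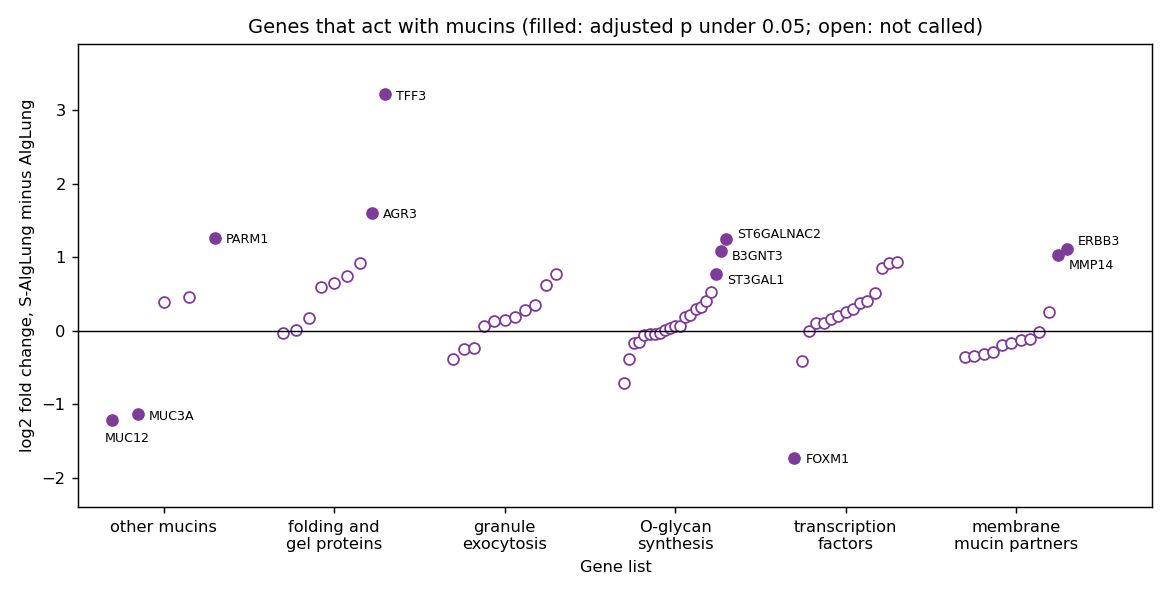
Log2 fold change (S-AlgLung minus AlgLung) of the tested genes in 6 lists of other mucins and genes that act with mucins, 1 point per gene, filled and named where the adjusted p was under 0.05. TFF3 is the highest of them at 3.22 and FOXM1 the lowest at -1.73, and no gene of granule exocytosis is filled.

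The genes whose pattern over the 6 libraries lay closest to a mucin were found by the root mean square difference of log2 CPM centred on each gene's mean. For MUC5B the closest of the 6 tested mucins was MUC5AC (0.27 on the log2 scale), followed by MUC2 (0.35) and MUC1 (0.35). Outside the mucins the 5 closest genes to MUC5B were MUC5B-AS1 (0.11), WNT4 (0.15), ALOXE3 (0.17), STARD10 (0.19) and MIR6744 (0.20). Since MUC5B-AS1 shares 434 exon bases with MUC5B, its closeness may come from reads of MUC5B itself. WNT4, which encodes a secreted WNT ligand, had 140.0, 101.0 and 58.2 CPM in S-AlgLung against 47.7, 40.5 and 31.4 CPM in AlgLung, so that here too the library labelled replicate 1 was highest in each hydrogel. For MUC5AC the 5 closest genes included the potassium channel gene KCND1 (0.15), PRR36 (0.19), the collagen gene COL26A1 (0.20) and the semaphorin gene SEMA6B (0.20), and MUC1 (0.26) was slightly closer than MUC5B (0.27).

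For MUC16 no other mucin came within 0.84, the distance of MUC2. The 5 closest genes were GFRA1 (0.29), TFF3 (0.29), TMEM176A (0.38), PTGDS (0.44) and BPIFB2 (0.51). Their log2 fold changes were 3.39, 3.22, 3.52, 3.52 and 3.64, beside 3.53 for MUC16. Their closeness thus largely restates the difference between the hydrogels. GFRA1, a receptor for glial cell line-derived neurotrophic factor, had 2.72, 2.45 and 1.49 CPM in S-AlgLung against 0.307, 0.135 and 0.166 CPM in AlgLung. BPIFB2, a BPI fold protein, had 45.2, 41.9 and 26.6 CPM in S-AlgLung against 2.26, 4.59 and 2.28 CPM in AlgLung. These distances are over 6 libraries, 3 of each hydrogel, in which all genes share the library's depth and hydrogel, and they carry no test. In bulk RNA, a larger share of cells that make a mucin and more mucin RNA per cell cannot be told apart.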

How the data were processed

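Per the labels' protocols, RNA was extracted with TRIzol and a NucleoSpin kit, and a service provider made the libraries, sequenced them and filtered the reads. STAR 2.7.3a, featureCounts and GRCh38 are named in the submitters' processing notes; the sources used here do not give the annotation or the strand and multi-mapping settings. The authors' deposited table holds raw counts per gene for 62703 gene IDs, of which 62625 matched a gene name table. AlgLung replicate 1 had a second column that differed in 0 genes and was counted once. Gene lengths are those deposited with the counts.

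Genes were kept with filterByExpr (minimum count 10), normalized by TMM and fitted with the robust quasi-likelihood test of edgeR 4.0.16 in R 4.3.3 over all 6 libraries, with Benjamini-Hochberg adjustment over 18544 genes and calls at an adjusted p under 0.05. Standard errors are the size of the log2 fold change over the square root of F. CPM are TMM-scaled and computed here. The fit was tested on simulated data, in 3 simulations with 200 changed genes each. Counts were drawn independently for each gene, so no simulated library stood apart over many genes as S-AlgLung replicate 3 did. In that simpler setting the fit recovered 50.5% of 2-fold, 94.4% of 4-fold and 99.0% of 8-fold changes, and 6.72% of its calls were false. A gene that was not called may therefore still differ by 2-fold. The total counts set the precision, and genes under 1 CPM are the least precise.

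The mucins, the gene lists and the rules were chosen with earlier results of these data known. Named genes were every mucin, up to 4 called and 2 uncalled genes with the smallest p in each list, and the 5 genes closest to MUC5B, MUC5AC and MUC16 with a mean of at least 1 CPM (values under 0.05 CPM set to 0.05). A sequence and some genes of these lists and rules are not reported here. Alternatives were DESeq2 size factors, library totals, upper-quartile factors, DESeq2 1.42.0 (Wald test), limma-voom (limma 3.58.1), no filter, a mean of at least 1 CPM, library sizes without the mucins, the replicate number as a block, an adjusted p under 0.01 and each library left out.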

Additional observations from a re-analysis of the deposited data

How the results depend on the processing

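The log2 fold changes of MUC16, MUC2, MUC5B, MUC5AC, MUC1 and MUC13 stayed above 0 in all 15 alternative fits. MUC16 and MUC2 were called in all 15, MUC5B in 9, MUC5AC and MUC1 in 1 and MUC13 in 0. With 1 library left out, the number of mucins called higher ran from 2 to 5 and called lower stayed at 0, genes called higher overall from 294 to 909 and lower from 249 to 668, and companion genes called higher from 3 to 12 and lower from 3 to 5. The summed mucin share differed by 0.417 to 1.38 percentage points with 1 library left out, and by 0.285 points without MUC5B. Library totals only gave 333 genes higher, and 5 companion genes higher. An adjusted p under 0.01 gave 322 higher and 222 lower genes and 5 companion genes higher. With the replicate block, 852 genes were called higher and 532 lower, and 14 companion genes higher, against 8 without it. The block added calls for TFF2, ZG16B, UNC13B, VAMP8, FOXA3 and KLF4 (edgeR adjusted p = 0.00938, 0.0256, 0.0283, 0.0399, 0.00359 and 0.00724) and for GALNT1, which was lower (0.0108). Same-numbered libraries deviated together at correlations of 0.07, 0.29 and 0.04. S-AlgLung replicates 1 and 2 correlated best with the AlgLung library of the same number, and S-AlgLung replicate 3 with AlgLung replicate 1 (0.21). Deviations from a mean of 3 libraries cannot settle if the numbers mark pairs, so the block was kept as an alternative. The causes of these differences were not tested. Mucins under 1 CPM were too shallow to compare.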
